A study of Mus musculus with 16 samples.

Results

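Lgr5-positive cells are the cells of 2 single-cell libraries of mouse colon tumour organoids in which at least 1 molecule of Lgr5 mRNA was counted. They were chosen by that count alone, among barcodes with at least 1000 genes, at least 10000 UMIs (unique molecular identifiers, each standing for 1 RNA molecule) and at most 20% of UMIs from mitochondrially encoded genes. This gave 332 of 3757 kept cells (8.84%), of which 71 of 1313 lay in the knockout library and 261 of 2444 in the control library. The knockout organoids had the genotype KMT9ko/ko and were labelled plus TAM. The control organoids had the genotype KMT9wt/wt and were labelled minus TAM. Both were AOM/DSS tumour organoids at passage 14, grown from tumours of a mouse model that joins the carcinogen azoxymethane with dextran sodium sulfate, which inflames the colon. TAM is not written out in full, and only the deposited tables carry a day, 5, in their names. Each group has 8 records but was described by the submitters as 1 sample, so n = 1 library per group, and effects of TAM and of the knockout cannot be told apart. The sources at hand name neither the driver of a recombinase nor the number of mice or organoid lines.

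LGR5 is a receptor for R-spondins, secreted proteins that strengthen Wnt signalling. When an R-spondin binds, the ubiquitin ligases RNF43 and ZNRF3 are cleared from the membrane, the Frizzled receptors they would remove stay in place, and beta-catenin switches on target genes, among them Axin2, Ascl2 and Lgr5 itself. In the normal colon Lgr5 marks the dividing stem cells at the crypt base, and it is also used as a marker of stem-like cells in intestinal tumours. The enzyme deleted here, KMT9, methylates histones and consists of KMT9alpha, the product of N6amt1, with its partner TRMT112. The title of the series names growth and stemness in colorectal cancer as what is studied.

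With 1 library per group, and with members chosen on a measured value, no comparison could be tested. All values describe these 2 libraries, the cells of a library are not replicates, and the 95% intervals given cover counting error only. Counts were summed over a set of cells and written as CPM (counts per 1000000 UMIs, with Lgr5 left out of the total). A gene counted as higher or lower where the sets differed by 1.5-fold or more and at least 1 of them reached 20 CPM, which is a rule of size and not a test. Each member was set against the 3 Lgr5-zero cells of its own library nearest to it in total UMIs. Median depth was 25789 UMIs in knockout members and 25792 in their matched cells, and 27933 in control members and 27922 in their matched cells. The knockout sets are shallower in sum (2079489 and 6232161 UMIs) than the control sets (8394122 and 25089437 UMIs), so ratios of low genes are less certain in the knockout library. The 2 matrices share 498 barcodes, 6 of them kept in both. A shared barcode was carried by 17 of 71 knockout members (23.9%), 67 of 213 knockout matched cells (31.5%), 28 of 261 control members (10.7%) and 74 of 783 control matched cells (9.45%), and the copy in the other matrix was the smaller one for every member. Results that turn on these cells are given with and without them.

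The targeted gene went the way of the labels in the members. N6amt1 stood at 6.25 CPM in knockout members and 31.8 CPM in control members (13 and 267 UMIs; log2 ratio -2.35, interval -3.28 to -1.55), and at 6.42 and 35.0 CPM in their matched cells. Trmt112 stood at 157 and 226 CPM in members (log2 ratio -0.52). The tags come from the 3′ end of transcripts, and the deleted exon is not stated in the sources at hand. Members were epithelial: Krt8 stood at 2559 CPM in knockout and 2645 CPM in control members, while the 12 immune genes summed to 14.9 and 9.89 CPM and the 12 stroma and endothelium genes to 21.2 and 9.05 CPM, with 0 of either list reaching 20 CPM. Of defining markers, Dclk1 (tuft cells), Chga (enteroendocrine cells), Ptprc (immune cells) and Col1a1 (fibroblasts) were found in 0 of 71 and 0 of 261 members thinned to 10000 UMIs, which allows shares of up to 4.23% and 1.15% of cells with a UMI, and Muc2 (goblet cells) in 2 and 2.

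Lgr5 itself was rare in both libraries and rarer in the knockout one. Lgr5 (ENSMUSG00000020140; mm10 chromosome 10, 115450311 to 115587780, minus strand) gave 84 UMIs in the knockout library, 2.27 CPM (1.81 to 2.81), and 333 UMIs in the control library, 4.78 CPM (4.28 to 5.32). That is 2.10-fold lower in the knockout library (log2 ratio -1.07, interval -1.44 to -0.72). The share of cells with an Lgr5 UMI was 5.41% (4.25 to 6.77) in the knockout and 10.7% (9.48 to 12.0) in the control library. With every cell thinned to 10000 UMIs it was 2.36% (1.61 to 3.33), 31 cells, and 4.54% (3.75 to 5.44), 111 cells. These are the values the members were chosen on and are given as a description. Without barcodes of both matrices the shares were 5.51% and 10.3%. The gene lies across A930009A15Rik on the opposite strand, and the sources at hand do not state the strand setting of the counting.

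Most members held a single Lgr5 molecule. In the knockout library 60 cells had 1 Lgr5 UMI, 9 had 2 and 2 had 3, which was the highest count. In the control library 216 cells had 1, 30 had 2, 15 had 3 or more, and the highest count was 7. The Lgr5 level inside the members was therefore alike, 40.4 CPM in knockout and 39.7 CPM in control members. The share followed depth differently in the 2 libraries. With all kept cells split into 4 bins of total UMIs, shallow to deep, the share of knockout cells with an Lgr5 UMI was 6.90%, 3.87%, 4.27% and 6.67%, and that of control cells 6.77%, 10.1%, 11.1% and 14.8%. In the shallowest bin the libraries had nearly the same share, and in the other bins the knockout share was lower. As a level, knockout cells went through 4.69, 2.18, 1.88 and 1.68 CPM across these bins, and control cells through 4.80, 5.17, 4.89 and 4.49 CPM. The shallowest member had 13163 UMIs in the knockout and 10260 in the control library, and the deepest barcode with an Lgr5 UMI that was left out had 9595 and 9857 UMIs.

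**Figure D1:**
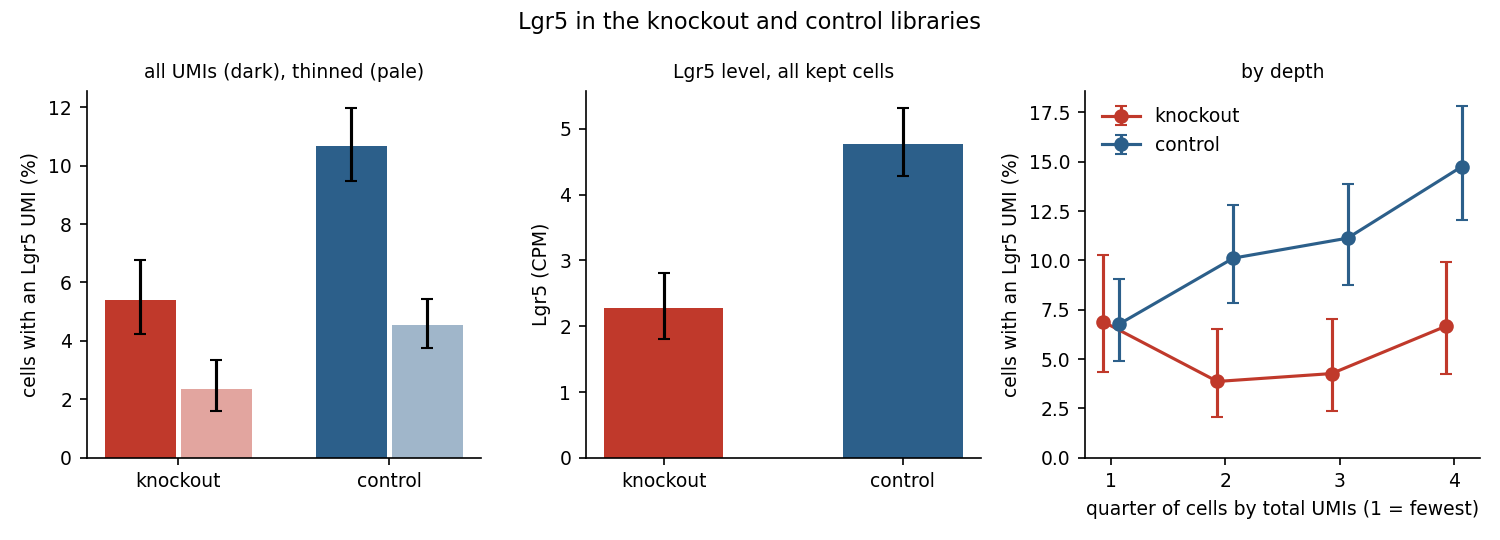
Share of kept cells with an Lgr5 UMI (left; dark bars all UMIs, pale bars after thinning every cell to 10000 UMIs), Lgr5 level in CPM (middle) and the share by bin of total UMIs per cell, 1 being the shallowest (right), in the knockout (red) and control (blue) library; error bars are 95% intervals for counting error, n = 1 library each. Knockout values are lower in all but the shallowest bin, where the shares are 6.90% and 6.77%.

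No cells known to lack Lgr5 were at hand, so an Lgr5 UMI in a cell could not be told from background. In the 10% of cells highest in 12 colonocyte markers, genes of the absorptive cells of the colon surface, 5 of 132 knockout cells (3.79%, 1.24 to 8.62) and 16 of 245 control cells (6.53%, 3.78 to 10.4) held an Lgr5 UMI after thinning, against 26 of 1181 other knockout cells (2.20%) and 95 of 2199 other control cells (4.32%). Median depth was 29934 and 25490 UMIs in these knockout sets and 27262 and 25667 UMIs in the control sets. The share in the cells highest in these markers was not below that of other cells in either library. These cells begin at 148.5 CPM of the summed markers in the knockout and 330 CPM in the control library. They were not shown to lack Lgr5, so the comparison gives no background level. Lgr5-positive is used here for a cell with a counted molecule, not for a cell shown to express the gene. Barcodes under 2000 UMIs, which are usually taken to hold free RNA or debris, gave 4 Lgr5 UMIs in 432569 in the knockout matrix (9.25 CPM, 2.52 to 23.7) and 1 in 807469 in the control matrix (1.24 CPM, 0.0314 to 6.90).

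Lgr5 molecules were nonetheless unevenly spread over cells. In the control library, the 25% of cells highest in S phase genes, which act in DNA replication, held Lgr5 at 6.31 CPM (5.22 to 7.56) and the 25% lowest at 3.01 CPM (2.31 to 3.85). The shares after thinning were 6.72% (4.89 to 8.98) and 2.46% (1.46 to 3.86). For crypt stem cell genes the Lgr5 level was 6.54 CPM in the highest and 3.86 CPM in the lowest control cells, and for the transcription factors of intestinal identity 6.48 and 3.96 CPM. Colonocyte genes gave 6.21 and 3.25 CPM, in the same direction as the stem cell genes. The knockout library shared part of this profile. Colonocyte genes gave 3.03 CPM (2.07 to 4.28) in the highest and 1.20 CPM (0.60 to 2.14) in the lowest knockout cells. Their shares after thinning were 3.95% (2.18 to 6.55) and 0.88% (0.18 to 2.56), and identity factors gave 2.97 and 2.10 CPM. The cells highest in Wnt target and feedback genes held Lgr5 at 4.75 CPM (3.39 to 6.47) and the lowest at 1.38 CPM (0.79 to 2.25), and crypt stem cell genes gave 3.84 and 1.23 CPM. Median depth was 22607 UMIs in the cells highest and 31022 UMIs in those lowest in Wnt genes, and 24230 and 27640 UMIs for stem cell genes. After thinning the shares were 3.76% (2.02 to 6.34) and 1.73% (0.637 to 3.73) for Wnt genes and 3.76% and 2.20% for stem cell genes, with overlapping intervals. S phase genes gave 2.06 CPM in the highest and 2.58 CPM in the lowest knockout cells, with intervals that overlap. The order was turned for fetal-like and revival genes, which mark regenerating gut epithelium, at 1.20 CPM (0.64 to 2.05) in the highest and 4.0 CPM (2.75 to 5.62) in the lowest knockout cells. Median depth was 30445 UMIs in the cells highest in fetal-like genes and 22746 UMIs in the lowest, and after thinning the shares were 2.12% and 2.99% with overlapping intervals. The part of depth in these differences was not tested.

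**Figure D2:**
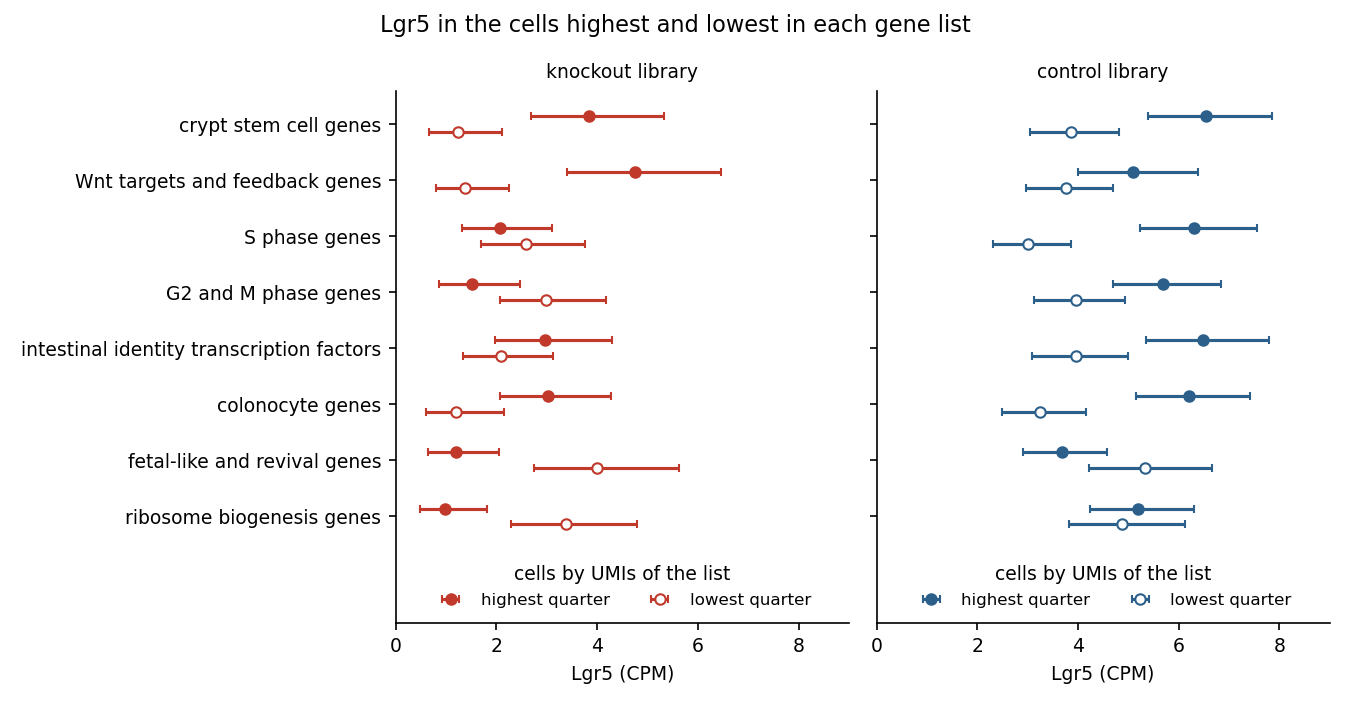
Lgr5 level in CPM (x axis) in the 25% of cells highest (filled points) and lowest (open points) in the summed UMIs of each gene list, in the knockout (left) and control (right) library; bars are 95% Poisson intervals for counting error. In the knockout library the points lie farthest apart for Wnt target and crypt stem cell genes, fetal-like genes and ribosome biogenesis genes, and in the control library S phase genes give 6.31 against 3.01 CPM.

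In the knockout library, members held more mRNA of crypt stem cell genes and of Wnt targets than matched Lgr5-zero cells, and less of fetal-like genes. Of 5863 genes measured, 176 were higher (3.00%) and 151 lower (2.58%), with a median log2 ratio of 0.02. Of 23 measured crypt stem cell genes 7 were higher and 0 lower, 20 had a ratio above 1, and the median log2 ratio was 0.31. Without barcodes of both matrices the count was 5 of 24 and the median 0.29. Smoc2, a secreted matrix protein of crypt base cells, stood at 169.8 CPM in members and 96.9 CPM in matched cells (log2 ratio 0.81, interval 0.62 to 1.0), but at 127 and 97.5 CPM without barcodes of both matrices, where the log2 ratio was 0.38. Etv5, a transcription factor downstream of MAPK signalling, stood at 52.9 and 30.0 CPM (0.82), Sectm1b at 32.7 and 17.3 CPM (0.92) and Scn2b, a sodium channel subunit, at 27.9 and 16.5 CPM (0.76). Ephb2, a receptor that positions cells along the crypt, was at 20.7 and 13.8 CPM, with an interval from 0.02 to 1.13. Ascl2, the transcription factor of the crypt stem cell state, did not share this direction, at 32.2 CPM in members and 35.8 CPM in matched cells (-0.15, interval -0.57 to 0.25).

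Of the 23 measured Wnt target and feedback genes 5 were higher and 1 lower in knockout members, with a median log2 ratio of 0.31, and the counts were the same without barcodes of both matrices. These included Znrf3, the ubiquitin ligase that removes Frizzled receptors and that also stands on the stem cell list, at 76.0 CPM in members and 42.0 CPM in matched cells (0.85, interval 0.56 to 1.14). Id2, an inhibitor of helix-loop-helix factors, was at 384 and 233 CPM (0.72), Wif1, a secreted Wnt inhibitor, at 726 and 461 CPM (0.66), and Prox1, a homeobox factor of intestinal tumours, at 55.3 and 34.3 CPM (0.69). Bambi, a decoy receptor of the BMP and TGF-beta pathway, was the lower one at 42.3 and 73.3 CPM. Under the size of 1.5-fold, but with intervals above 0, were Notum, a secreted enzyme that inactivates Wnt ligands (379.9 and 266 CPM, 0.51), Nkd1, an intracellular inhibitor (900.3 and 676 CPM, 0.41), and Axin2, the scaffold of the beta-catenin destruction complex (135 and 105 CPM, 0.36). Myc (124 and 119 CPM) and Ccnd1, cyclin D1 (264.5 and 284 CPM), differed by less than their counting error. Receptors and signal transducers of the pathway gave 0 of 13 genes past the rule, with Lgr4, a related R-spondin receptor, at 32.2 and 24.1 CPM. Of the ligands, Wnt6 was at 254 and 311 CPM, Wnt10a at 134 and 139 CPM, and Wnt7b at 52.4 and 61.3 CPM.

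Cell cycle genes were less clear in the knockout members. Of 19 S phase genes 0 were higher and 1 lower, with a median log2 ratio of 0.07 (3 and 0 of 19 without barcodes of both matrices). Of 30 G2 and M phase genes 3 were higher and 0 lower, with a median of 0.17. This median became -0.04 when the cell with most UMIs of each gene was left out. It became 0.32 without barcodes of both matrices, where 4 of 29 were higher and 0 lower. Ube2c, which helps end mitosis, was at 183 and 112 CPM (0.72), in 23 of 71 members and 59 of 213 matched cells. Of transcription factors of intestinal identity, Hoxb13 was higher at 65.4 and 38.3 CPM (0.77), Cdx1 lower at 10.6 and 22.0 CPM (-1.06), and Cdx2 at 30.8 and 21.7 CPM (0.51). Of 24 fetal-like and revival genes 0 were higher and 6 lower, with a median of -0.40. Areg, a ligand of the EGF receptor, stood at 233 and 435 CPM (-0.90), Anxa8, an annexin, at 39.4 and 78.0 CPM (-0.98), and Clu, clusterin, a marker of revival stem cells, at 259.7 and 421 CPM (-0.70). Ly6a, the surface antigen Sca-1, was at 1661 and 2143 CPM (-0.37) and was found in 54 of 71 members (76.1%, 64.5 to 85.4) and 199 of 213 matched cells (93.4%, 89.2 to 96.4) after thinning. This result rests in part on cells of a shared barcode: without them 1 of 23 fetal-like genes was higher and 0 lower, the median was -0.17, and Clu stood at 245.5 and 237 CPM.

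Several of the genes farthest from equality in the knockout library lay in few cells. Among genes at 50 or more CPM, the highest ratios included those of Cd177, a surface glycoprotein (60.1 and 10.8 CPM, log2 ratio 2.48), Thbs2, thrombospondin 2 (103 and 23.3 CPM), Ceacam10, a secreted cell adhesion protein (83.7 and 19.3 CPM), Aoc1, diamine oxidase (79.3 and 20.5 CPM), Car1, a colonocyte carbonic anhydrase (1227 and 320.0 CPM), Tm4sf20 (141 and 45.4 CPM) and Bace2, a membrane protease (95.2 and 31.8 CPM). A single member held 98.5% of the Car1 UMIs and 94.2% of those of Tm4sf20. Without the cell richest in each gene, Car1 had a log2 ratio of -0.52 and Tm4sf20 one of -1.35. Without barcodes of both matrices the log2 ratio was -0.76 for Thbs2 and 0.23 for Ceacam10, and 1.56 for Cd177 and 3.29 for Aoc1. The lowest ratios were those of the chemokine gene Ccl5 (4.81 and 145 CPM), Krt15 (3.37 and 64.8 CPM), Pnliprp2, a lipase (19.7 and 89.2 CPM), Ly6d (64.4 and 235 CPM), Acta1 (16.8 and 53.6 CPM), Tm4sf1 (57.7 and 159.7 CPM), Cyp2b10 (23.6 and 61.3 CPM) and F3, tissue factor (139.9 and 344 CPM). Of the matched cells 1 alone held 67.8% of the Ccl5 UMIs. Of 15 colonocyte genes 7 were higher and 2 lower, and without the richest cells 2 of 12 were higher and 6 lower. The keratin gene Krt20 was at 43.8 CPM in members and 14.4 CPM in matched cells. It was at 45.1 CPM in members with 1 Lgr5 UMI and 36.1 CPM in those with at least 2. The part of single cells in these Krt20 values was not tested.

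In the control library, fewer genes passed 1.5-fold between members and matched cells than in the knockout library, whose sets hold fewer UMIs, and most of those that did are not cell cycle genes. Of 5696 genes measured, 18 were higher (0.316%) and 20 lower (0.351%), with a median log2 ratio of 0.02. G2 and M phase genes were the list with most called members, 4 of 38 higher and 0 lower, with 37 above a ratio of 1 and a median of 0.38. Ube2c stood at 275 and 177 CPM (log2 ratio 0.63, interval 0.56 to 0.70), in 142 of 261 members and 335 of 783 matched cells. Cenpa, the histone of the centromere, was at 76.6 and 47.2 CPM (0.70), Hmmr, a spindle protein, at 20.5 and 12.6 CPM (0.71), and Ccnb2, cyclin B2, at 43.8 and 28.3 CPM (0.63). Of 31 S phase genes 30 had a ratio above 1 but 0 passed 1.5-fold, with a median of 0.23, led by Uhrf1, which maintains DNA methylation (41.9 and 29.7 CPM, 0.50), and Cdca7 (72.1 and 51.2 CPM, 0.49). When cells were matched on the summed share of cell cycle genes as well as on depth, the median was 0.07 for G2 and M phase genes and -0.07 for S phase genes. The matching used the genes of these same lists, so medians near 0 were set by it and are not a result. Cdkn1a, the p21 inhibitor of the cell cycle, was at 709 and 731 CPM.

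Crypt stem cell genes leaned the same way in the control library without any of 20 passing 1.5-fold. Their median log2 ratio was 0.11, with 18 above a ratio of 1, and it stayed at 0.11 after matching on the cell cycle. Ascl2 stood at 156 CPM in control members and 113 CPM in matched cells (0.47, interval 0.37 to 0.57) and was found in 150 of 261 members (57.5%, 51.2 to 63.5) and 378 of 783 matched cells (48.3%, 44.7 to 51.8) after thinning. Smoc2 was at 161 and 139.9 CPM (0.20), Axin2 at 113 and 93.5 CPM (0.27), and Sox9, a crypt transcription factor, at 89.0 and 78.2 CPM (0.19). Of 19 Wnt target and feedback genes 0 passed the rule, with a median of 0.11. Of the Wnt inhibitors named for knockout members, Znrf3 was at 30.1 and 29.8 CPM, Wif1 at 236 and 243 CPM, Notum at 223 and 227 CPM, and Nkd1 at 498 and 552 CPM (-0.15). Whether the 2 libraries differ in these ratios was not tested, since each is 1 library. Isx, an intestinal homeobox factor, was the 1 identity factor of 12 past the rule, at 51.9 and 32.8 CPM (0.66), and 11 of the 12 had a ratio above 1, among them Cdx2 at 111 and 92.0 CPM (0.26).

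As lists, colonocyte and fetal-like genes showed little difference in control members, while single differentiation genes differed. Of 11 colonocyte genes 1 was higher and 1 lower, with a median log2 ratio of -0.06. Of 21 fetal-like genes 0 passed the rule, with a median log2 ratio of -0.18, and Ly6a was at 1829 and 1903 CPM and Clu at 91.3 and 84.9 CPM. Krt20, a keratin of mature colonocytes, was at 3.93 and 6.54 CPM and so below the measured level in both sets. In knockout members it was at 43.8 CPM. Car1 was at 2.38 CPM in members and 58.1 CPM in matched cells (-4.61), from 17 of 261 and 82 of 783 cells with a UMI. Reg4, a secreted lectin of secretory cells, was at 45.0 and 24.0 CPM (0.91), in 41 and 101 cells. Pnliprp2 was at 53 and 0.60 CPM, from 4 of 261 and 10 of 783 cells, of which 1 member held 95.7% of the UMIs. Among the highest ratios were also 2 metallothionein genes, Mt4 (263.5 and 131.5 CPM) and Mt3 (219.6 and 114 CPM), of which 1 member held 56.2% and 51.7% of the UMIs. Without barcodes of both matrices the log2 ratios were -1.12 for Pnliprp2, -0.31 for Mt4 and -0.13 for Mt3. The lowest ratios after Car1 were those of Ifit1, an interferon-induced gene (25.9 and 51.7 CPM, -1.0), Lor, loricrin of cornified epithelium (201 and 391 CPM, -0.96), Ly6g (96.3 and 167 CPM), F3 (105 and 167 CPM), Tm4sf1 (97.9 and 153 CPM), Cited1 (51.5 and 79.6 CPM) and Cryab, a small heat shock protein (126 and 192 CPM).

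**Figure D3:**
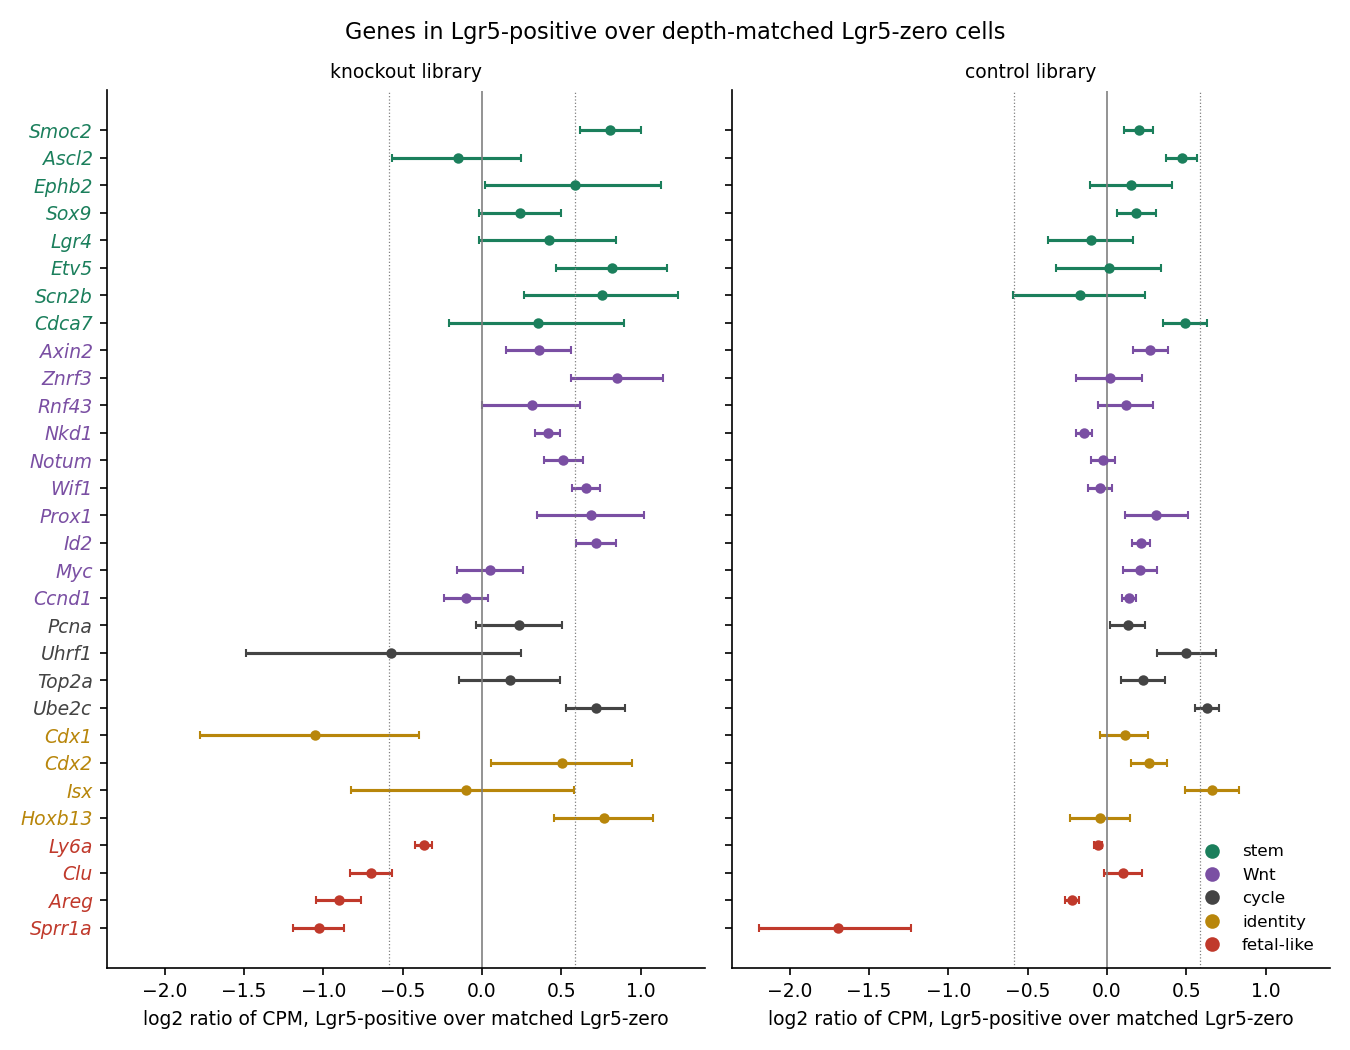
Log2 ratio of CPM in Lgr5-positive cells over depth-matched Lgr5-zero cells (x axis) for named stem cell, Wnt, cell cycle, identity and fetal-like genes, in the knockout (left) and control (right) library; bars are 95% intervals for counting error and dotted lines mark 1.5-fold. Stem and Wnt genes such as Smoc2, Znrf3 and Wif1 lie past the right line in the knockout library (0.81, 0.85 and 0.66), and Ascl2 lies above 0 in the control library alone (0.47).

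Among 5302 genes measured in both libraries, 92 were higher in knockout members (1.74%) and 13 in control members (0.245%), and 5 were on both lists, which is 5.43% of the knockout and 38.5% of the control list. Among them were Ube2c, Cd177, Ceacam10 and Irf8, an interferon regulatory factor. Of 103 lower in knockout (1.94%) and 18 lower in control members (0.339%), 7 were shared (6.80% and 38.9%), namely the chemokine gene Ccl20, Tm4sf1, Lor, F3, the skin protease gene Asprv1, Krt36 and Dynap. They were named after their values were seen. Across these genes the log2 ratios of the libraries had a Pearson coefficient of 0.09 and a Spearman coefficient of 0.18. The genes are not independent replicates.

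Between the libraries, S phase genes had the median farthest from 0 in members among lists with at least 2 measured genes. Of 6101 genes measured, 718 were higher (11.8%) and 934 lower (15.3%) in knockout than in control members, with a median log2 ratio of -0.07. Between the matched Lgr5-zero cells 465 of 5932 were higher (7.84%) and 697 lower (11.7%), also with a median of -0.07. The knockout sets hold fewer UMIs, and the part of counting error in these counts was not tested. Of 31 S phase genes measured in members 28 were lower and 0 higher, with a median of -1.5, and in matched cells 30 of 30 were lower, with a median of -1.17. Uhrf1 stood at 7.21 CPM in knockout and 41.9 CPM in control members (-2.54), E2f1, a factor of S phase entry, at 8.66 and 36.7 CPM (-2.08), and Rfc5, a clamp loader subunit, at 13.5 and 62.2 CPM (-2.21). Of 38 G2 and M phase genes 24 were lower and 0 higher, with a median of -0.89, against 17 of 34 and a median of -0.57 in matched cells. Mki67, the Ki-67 antigen, stood at 7.69 and 27.0 CPM in members (-1.81, interval -2.64 to -1.08) and at 16.2 and 21.4 CPM in matched cells (-0.40). It had a UMI in 6 of 71 knockout members (8.45%) and 49 of 261 control members (18.8%) after thinning. Top2a, a topoisomerase gene, was at 48.5 CPM in knockout and 59.6 CPM in control matched cells. Among members it was at 63.7 and 62.9 CPM with 1 Lgr5 UMI, and at 3.28 and 99.3 CPM with at least 2. Ccnd1 was at 264.5 and 643 CPM, and Ccnd2, cyclin D2, at 89.4 and 237 CPM. Cell cycle inhibitors went both ways, with Cdkn2b at 114 and 63.5 CPM, Cdkn2a at 41.8 and 22.8 CPM, and Cdkn1a at 590 and 709 CPM.

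Crypt stem cell genes were split between the libraries. Of 24 measured in members 9 were higher and 3 lower in the knockout, with a median log2 ratio of 0.28, against 3 higher and 3 lower of 21 in matched cells and a median of 0.03. Ascl2 stood at 32.2 CPM in knockout members and 156 CPM in control members (-2.28, interval -2.65 to -1.92), and at 35.8 and 113 CPM in matched cells (-1.65). It had a UMI in 26 of 71 knockout and 208 of 261 control members. Cdca7 was at 19.7 and 72.1 CPM in members. On the higher side stood Etv5 (52.9 and 12.2 CPM, 2.12) and Scn2b (27.9 and 7.62 CPM, 1.87). Smoc2 was at 169.8 and 161 CPM in members and at 96.9 and 139.9 CPM in matched cells. Without barcodes of both matrices it was at 127 and 177 CPM in members. Lrig1, a brake on EGF receptor signalling that marks crypt progenitors, was at 8.18 and 11.8 CPM, and Ephb2 at 20.7 and 20.5 CPM.

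Of 23 measured Wnt target and feedback genes 12 were higher in knockout members and 2 lower, with a median log2 ratio of 0.61, and without barcodes of both matrices 10 of 23 were higher and 2 lower, with a median of 0.57. In matched cells 5 of 21 were higher and 3 lower, with a median of 0.26. Wif1 stood at 726 and 236 CPM (1.62, interval 1.52 to 1.72), Znrf3 at 76.0 and 30.1 CPM (1.33), Nkd1 at 900.3 and 498 CPM (0.85), Notum at 379.9 and 223 CPM (0.77) and Rnf43 at 60.6 and 43.8 CPM (0.47). These 5 genes restrain the pathway at the ligand, the receptor or inside the cell. Their log2 ratios in matched cells were 0.92, 0.50, 0.29, 0.23 and 0.27. Axin2 differed little, at 135 and 113 CPM (0.26), and Myc was at 124 and 119 CPM. The 2 lower genes were Ascl2 and Ccnd1. Other higher genes of the list were the matrix protease gene Mmp7 (490.0 and 211 CPM) and Prox1 (55.3 and 35.5 CPM). Of 13 receptors and transducers 5 were higher and 1 lower, with a median of 0.29 beside 0.28 in matched cells. Tcf7l2, the partner of beta-catenin on DNA, was at 54.8 and 33.0 CPM, Lgr4 at 32.2 and 18.2 CPM, and the receptor gene Fzd1 at 22.1 and 11.9 CPM. Cd44, a surface receptor and Wnt target, was at 96.7 and 62.4 CPM.

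**Figure D4:**
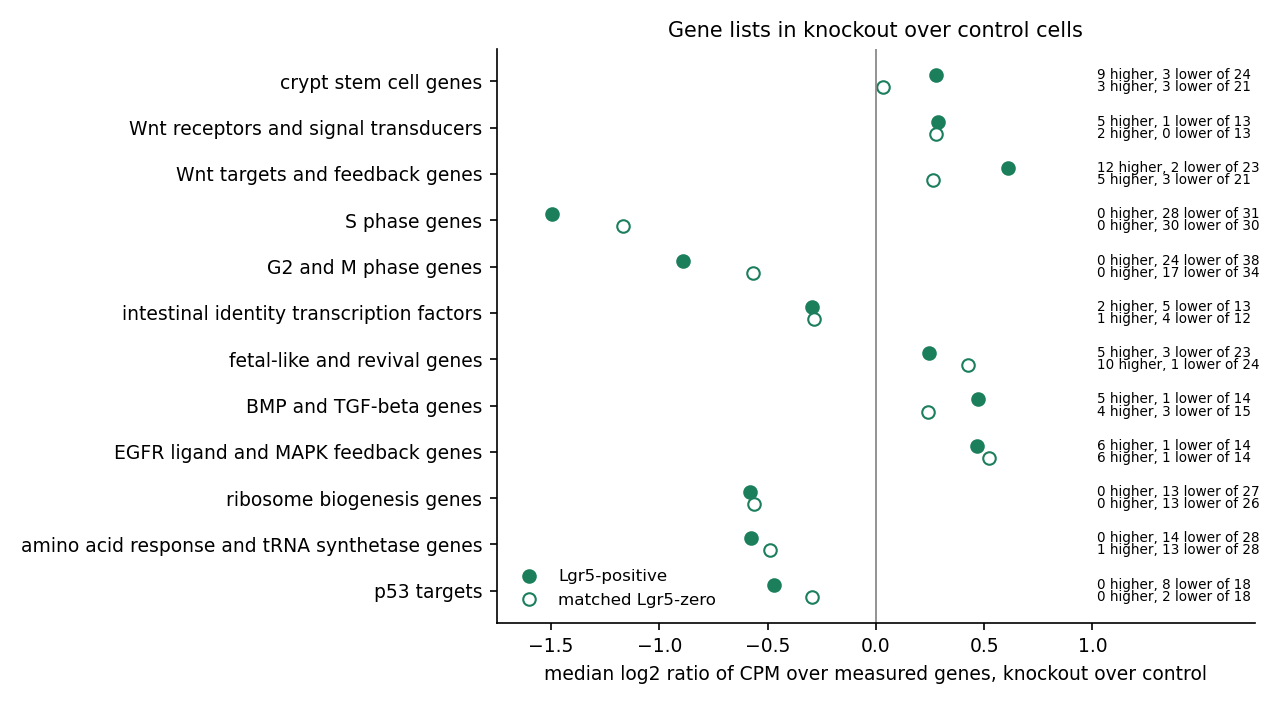
Median log2 ratio of CPM, knockout over control, over the measured genes of 12 of the lists (x axis), in Lgr5-positive cells (filled points) and in their depth-matched Lgr5-zero cells (open points), with the number of genes past 1.5-fold beside each point. S phase genes lie lowest at -1.5 and -1.17, and Wnt target and feedback genes at 0.61 in Lgr5-positive cells. Colonocyte genes (0.91, and -0.73 without the cell richest in each gene) and deep crypt secretory genes (0.96 over 3 genes) lie higher and are among the lists not drawn.

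Of 13 measured transcription factors of intestinal identity 2 were higher and 5 lower in knockout members, with a median log2 ratio of -0.30, beside 1 and 4 of 12 and a median of -0.29 in matched cells. Cdx1 stood at 10.6 and 58.3 CPM (-2.46), Cdx2, which specifies the intestine, at 30.8 and 111 CPM (-1.84), and Isx at 11.5 and 51.9 CPM (-2.17). Avil, an actin-binding protein gene that also stands on the tuft cell list, was at 11.5 and 75.4 CPM (-2.71), and Slamf9, a surface receptor gene, at 5.29 and 51.3 CPM (-3.28), the lowest ratio at 50 or more CPM. Hoxb13 was higher at 65.4 and 37.3 CPM, and Sox9 was at 83.7 and 89.0 CPM.

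Signals that act beside Wnt in the crypt had list medians above 0 in knockout members and in matched cells. Of 14 genes of EGF receptor ligands and MAPK feedback 6 were higher and 1 lower, with a median log2 ratio of 0.47 beside 0.53 in matched cells, among them Spry2, an inhibitor of the pathway (32.7 and 10.6 CPM, 1.62). Of 14 BMP and TGF-beta genes 5 were higher and 1 lower, with a median of 0.47 beside 0.24, led by the ligand Bmp2 (91.4 and 15.6 CPM, 2.55). The sum of this list differed little, at 1938 CPM in knockout and 1942 CPM in control members, and 1649 and 1706 CPM in matched cells. Hes1, the main Notch effector, was at 920.5 and 451 CPM in members (1.03) and at 1022 and 562 CPM in matched cells (0.86), and 1 of 4 measured Notch genes was higher beside 4 of 5 in matched cells. Of the Wnt ligands, Wnt10a was at 134 and 74.5 CPM and Wnt6 at 254 and 207 CPM.

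Fetal-like and revival genes went in both directions, with 5 of 23 higher and 3 lower and a median log2 ratio of 0.24. In matched cells 10 of 24 were higher and 1 lower, with a median of 0.43. Sprr1a, which encodes a cornified envelope protein, stood at 177 CPM in knockout and 5.0 CPM in control members, in 23 of 71 and 20 of 261 cells. Spp1, osteopontin, was at 72.6 and 12.6 CPM, and Clu at 259.7 and 91.3 CPM in members and at 421 and 84.9 CPM in matched cells. Areg was lower at 233 and 631 CPM, and Ly6a was at 1661 and 1829 CPM. Other genes with high ratios encode secreted or signalling proteins: the chemokines Ccl2 (184 and 9.89 CPM, of which 1 knockout member held 42.1% of the UMIs) and Cxcl5 (171 and 11.9 CPM), and Plat, tissue plasminogen activator (365.5 and 50.5 CPM, in 64 of 71 and 137 of 261 cells). Krt90, a keratin, was at 50.5 and 6.20 CPM. Car1 was at 1227 and 2.38 CPM but rests on 1 cell, and Thbs2, at 103 and 8.46 CPM, had a log2 ratio of 0.02 without barcodes of both matrices. The colonocyte list, with 7 of 13 higher and a median of 0.91, turned to a median of -0.32 without barcodes of both matrices and to -0.73 without the cell richest in each gene.

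Lists of growth and amino acid supply had medians below 0 in knockout members, close to those in matched cells. Of 27 ribosome biogenesis genes 13 were lower and 0 higher, with a median log2 ratio of -0.58 beside -0.56 in matched cells, among them Rrs1 (88.0 and 210.4 CPM) and Nolc1 (74.5 and 163 CPM). Of 28 genes of the amino acid response and of tRNA synthetases 14 were lower, with a median of -0.58 beside -0.49, led by Trib3 (27.4 and 134 CPM) and Atf5 (37.0 and 168 CPM), both induced when amino acids are short. Of 18 p53 targets 8 were lower and 0 higher, with a median of -0.47 beside 2 lower and -0.29 in matched cells, such as Gdf15, a stress cytokine (221 and 469 CPM), and Perp, a junction protein (140.4 and 293 CPM). The 34 cytosolic ribosomal protein genes had 0 past the rule and a median of -0.09.

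The members were not uniform within a library. In knockout members thinned to 10000 UMIs, crypt stem cell genes gave 9 to 62 UMIs per cell (median 30), and matched cells 0 to 60 (median 24). Wnt target and feedback genes gave 5 to 144 UMIs (median 54) in knockout members and 5 to 104 (median 41) in matched cells. In control members the medians were 23 and 37 UMIs, and in control matched cells 21 and 36. S phase genes gave a median of 6 UMIs in knockout members (highest 40) and 18 in control members (highest 89). Fetal-like genes spread from 44 to 543 UMIs (median 121) in knockout and from 31 to 357 (median 134) in control members. Ly6a was absent after thinning from 17 of 71 knockout members (23.9%) and 18 of 261 control members (6.90%).

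Cells with at least 2 Lgr5 UMIs were 11 in the knockout and 45 in the control library. They are set beside members with 1 Lgr5 UMI and the matched cells of all members, without new matching on depth. Median depth was 30030, 27307 and 27922 UMIs in these control sets and 26100, 25436 and 25792 UMIs in the knockout sets. The part of depth in the values was not tested. In the control library, cells with at least 2 Lgr5 UMIs held more mRNA of cell cycle genes and of Ascl2 than members with 1. G2 and M phase genes summed to 5844 CPM (5725 to 5966) in cells with at least 2 Lgr5 UMIs, 3701 CPM in cells with 1 and 3276 CPM in matched cells, and S phase genes to 2763, 2147 and 1936 CPM. Ascl2 was at 200.5, 146 and 113 CPM in the same order. Other genes had no such order, with Notum at 311, 203 and 227 CPM, Ccnd1 at 575, 659 and 584 CPM and the sum of colonocyte genes at 1746, 1536 and 1692 CPM. In the 11 knockout cells the sum of Wnt target and feedback genes was higher, at 5502, 5037 and 4024 CPM, and the sums of cell cycle genes were lower. Against cells matched in depth to these 11, 11 of 23 Wnt genes were higher and 3 lower. Of all 6078 genes measured there, 1098 were higher and 1170 lower. Ccnd1, at 227, 271 and 284 CPM, and Cd44, at 68.9, 101 and 98.4 CPM, were not high. Notum was at 529, 354 and 266 CPM, Smoc2 at 295, 148 and 96.9 CPM, and Wif1 at 1126 CPM beside 726 CPM in all knockout members. G2 and M phase genes summed to 929, 2694 and 2246 CPM, Top2a, the topoisomerase of dividing cells, was at 3.28, 63.7 and 48.5 CPM, and Ascl2 at 16.4, 34.9 and 35.8 CPM. Fetal-like genes summed to 14092, 16662 and 21385 CPM in the knockout and to 13607, 15523 and 16628 CPM in the control library, which is the same order in both. The knockout contrast with matched cells rests in part on cells of a shared barcode. For all knockout members the fetal-like median log2 ratio over matched cells was -0.40, and -0.17 without those cells. These sets are small, and 1 cell can carry a large part of a value.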

How the data were processed

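Single-cell mRNA was captured with 10x Chromium 3′ v2 chemistry from AOM/DSS tumour organoids, per the labels. The deposited matrices hold whole-number UMI counts per gene and barcode, not normalized, made by the authors. The file headers name Cell Ranger 3.1.0, and the submitters' processing notes name mm10. For the annotation release, the sources used here give nothing. The 16 records were grouped by genotype and TAM label and taken as 1 library per group (2078 barcodes with 38860718 UMIs in the knockout, 3618 with 72223578 in the control matrix).

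The members, the gene lists and the comparisons were chosen with earlier results of these data known. Counts were summed over cells and divided by the sum of all UMIs but those of Lgr5. Ratios carry exact conditional binomial intervals, shares Clopper-Pearson intervals and levels exact Poisson intervals, at 95% and for counting error only. A count of 0 was given a floor of 3 counts. The genes named were 28 fixed ones, at most 4 per list by size of ratio, and the 8 highest and 8 lowest ratios at 50 CPM or more, without predicted and mitochondrial genes. A gene that met this rule is not reported here. Doublets were left in. Scrublet's own threshold called 4 knockout and 8 control cells (0.305% and 0.327%), so it was not used, and in an alternative the 14 and 48 cells with the highest scores were removed, with 0 and 7 members among them. Alternatives were other filters on cells, thresholds of CPM and fold, matching, scaling, at least 2 Lgr5 UMIs and no shared barcodes. Those without the cell richest in each gene and with a floor on the mean CPM were chosen after seeing the data. Intervals and calls were tested on simulated summed counts, which held no spread between cells. Matching was checked on the real cells, for 3 matched cells per member, each used once. Python 3.11.15, numpy 2.4.6, pandas 2.3.3, scipy 1.17.1, scanpy 1.11.5, R 4.3.3 and edgeR 4.0.16 (scaling factors only) were used.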

Additional observations from a re-analysis of the deposited data

Results flagged for a closer look

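For 4 genes the members lay on opposite sides of their matched Lgr5-zero cells in the 2 libraries, past 1.5-fold each time, and the difference was not tested. The log2 ratio of Car1 was 1.94 in the knockout and -4.61 in the control library, with 98.5% of the UMIs of knockout members in 1 cell. That of Cxcl5 was 0.71 in the knockout library (26 of 71 members with a UMI) and -1.18 in the control library (27 of 261). That of Ly6g was 0.84 in the knockout library, where 1 member held 52.7% of the UMIs, and -0.80 in the control library. That of Pnliprp2 was -2.18 in the knockout and 6.47 in the control library, from 4 members in each. In the control library 1 member held most of the UMIs, and the log2 ratio was -1.12 without barcodes of both matrices. In the knockout library it was -0.05 with matching on the cell cycle. In data outside the kept cells, knockout barcodes under 2000 UMIs held Lgr5 at 9.25 CPM, from 4 UMIs, beside 1.24 CPM from 1 UMI in the control matrix.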

How the results depend on the processing

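No paired analysis was possible because each group is 1 library. For the same reason no replicate could be left out. Values past 1.5-fold kept their direction in all but 29 cases. Smaller values could also change sign, and how often was not counted. Of the list medians and gene ratios, 4935 stayed within the counting error of the main value and 948 moved beyond it without such a reversal. Many of these could not move. The fold threshold enters neither kind of value, and a CPM threshold enters no gene ratio. At 2-fold 362 stayed, at 10 CPM 350 and at 50 CPM 340. The tallies of 29 and 4935 include such settings and do not measure stability. With at least 2 Lgr5 UMIs 260 moved and 90 stayed. Over all alternatives the median log2 ratio over matched cells ran from -1.22 to 0.32 for G2 and M phase genes, -0.20 to 0.19 for S phase genes, -0.21 to 0.12 for identity factors and -0.06 to 0.21 for BMP and TGF-beta genes in the knockout library, and from -0.07 to 0.43 for S phase genes in the control library. For colonocyte genes it ran from -0.82 to 0.70 in the knockout library, and between members from -0.73 to 1.83. Medians of further lists also crossed 0, such as Wnt receptors and transducers in the knockout library (-0.11 to 0.44). With at least 2 Lgr5 UMIs (11 and 45 members), the log2 ratio over matched cells was -2.00 for Car1, 0.00054 for Ctgf, 2.17 for Krt15, -4.74 for Tm4sf20 and -3.79 for Ube2c in the knockout library and 0.88 for Krt20 and 0.17 for Muc3 in the control library, and between members it was -0.0053 for Cd44, -0.15 for Fzd1 and -4.57 for Lypd8. Without barcodes of both matrices it was 0.052 for Clu, 0.046 for Cpe, 0.19 for Sprr1a, -0.76 for Thbs2 and -0.30 for Tm4sf20 in the knockout library, -0.13 for Mt3, -0.31 for Mt4 and -1.12 for Pnliprp2 in the control library, and between members -0.32 for the colonocyte median, -0.99 for Lypd8 and 4.91 for Pnliprp2. Without the cell richest in each gene it was -0.52 for Car1, -1.35 for Tm4sf20 and -0.040 for Mt4, and between members -0.73 for the colonocyte median, -1.38 for Lypd8 and 2.47 for Pnliprp2. As a mean over cells, Pnliprp2 gave 0.10 between members, and with matching on the cell cycle Sprr1a gave 0.029 in the knockout library. The share of cells with at least 2 Lgr5 UMIs was 0.838% in the knockout and 1.84% in the control library.

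Counts of genes past the rule depended on it, as fewer or more genes and cells were used. In the knockout library 176 higher genes became 1098 with at least 2 Lgr5 UMIs, 386 at 10 CPM, 59 at 50 CPM, 3459 with no CPM minimum, 46 at 2-fold and 113 without the richest cells, and 151 lower genes became 1170, 311, 46, 1217 and 38 under the first 5 of these, 87 without barcodes of both matrices and 98 without matching. In the control library 18 higher genes became 275, 35, 6, 3094, 3 and 9 under the same 6, and 20 lower genes 191, 38, 8, 954 and 3 under the first 5, and 13 with matching on the cell cycle. Between members 718 higher genes became 1237, 1144, 318, 4888 and 277 under the first 5, and 934 lower genes 1647 with at least 2 Lgr5 UMIs, 508 at 50 CPM, 2148 with no minimum and 271 at 2-fold. The cause was not tested. Other scaling factors moved the median log2 ratio of all genes by -0.05 to -0.02. Depth limits what can be said of Lgr5, since 84 and 333 UMIs underlie it.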
